A study of Triticum aestivum with 15 samples.

Results

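In germinating seeds of the bread wheat cultivar Jimai 20, 200 probe sets of the Affymetrix Wheat Genome Array were set apart as transcripts of the middle of germination. They were bright at 24 and 36 hours after imbibition (HAI) and dimmer in the dry seed, at 12 HAI and again at 48 HAI. A probe set is a group of short probes that are read together as 1 value, mostly for 1 transcript, though some match several. The members were chosen from 61115 probe sets by their own values. For each probe set, 16 was added to the intensity, log2 was taken and the 3 arrays of a stage were averaged. The score was the lower of the means at 24 and 36 HAI minus the highest of the means at 0, 12 and 48 HAI, and the members were the 200 highest scores. High values at 24 and 36 HAI are therefore the definition of the members and not a result, and no test is given for them.

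The study followed 5 stages of 1 cultivar, with 3 biological replicates and thus 3 arrays each, on total RNA of seeds without any further treatment. The stages were the dry seed (0 HAI, P0), the seed steeped in water (12 HAI, P1), the stage of the first radicle (24 HAI, P2), the stage with an obvious radicle and germ (36 HAI, P3) and the green germ with its radicles (48 HAI, P4). Seeds were steeped for the first 12 hours and then kept in dishes with water. Stage, age and time in water change together, and RNA of endosperm, aleurone and embryo was mixed, so that more cells of a type and more RNA per cell cannot be told apart.

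Germination starts with the uptake of water and ends when the radicle breaks through the coat, after which the seedling grows on reserves drawn from the endosperm. Growth of the radicle and the coleoptile at that time comes mostly from cell elongation, for which the walls have to yield. Expansins are wall proteins that loosen the bonds between wall polymers, and xyloglucan endotransglycosylase/hydrolases (XTH) cut and rejoin the xyloglucan chains that tie cellulose fibrils together. Bread wheat is a hexaploid that carries most genes as homoeologs on its A, B and D genomes, and probe sets of the array can pick up more than 1 of them.

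Names were few. The probe table gave a gene symbol for 20 members, which belong to 16 genes, and no symbol for 180. For LOC543145 a rice match described a beta-expansin precursor, and XTH carries its name as its symbol. The other named members have only locus symbols, to which no role is given here. Of the 61115 probe sets, 1273 had a symbol.

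The score of the members had a median of 1.64 in log2 units and ran from 1.23 to 4.11, while the median of all probe sets was -0.76. A score above 0 was found for 5690 probe sets, above 1 for 325 and of 3 or more for 14. The distribution had no gap at the limit. Just inside it, Ta.9481.3.S1_x_at had stage means of 46.6, 44.3, 384, 397 and 164 from 0 to 48 HAI and Ta.1465.1.S1_at had 758, 392, 2618, 3779 and 1109.8. Just outside, Ta.5348.1.S1_x_at had 41.4, 23.8, 119.8, 613 and 41.7 and Ta.10503.3.S1_x_at had 217, 384, 2233, 1967 and 831. All 4 had a score of 1.23 after rounding, with shapes that differed, from level over the peak to much higher at 36 than at 24 HAI.

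**Figure D1:**
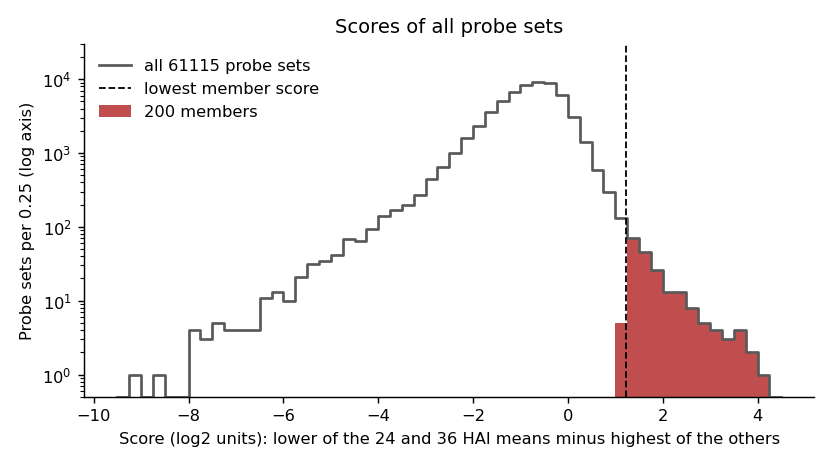
Number of probe sets (log axis) by score in log2 units, for all 61115 probe sets (grey line) and the 200 members (red). The dashed line marks the lowest member score of 1.23, and the distribution runs on without a gap there.

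The median member had a mean intensity of 51.7 in the dry seed and 48.7 at 12 HAI. It was at 616 and 840.3 at 24 and 36 HAI and at 129.8 at 48 HAI. Over all probe sets the median stayed between 65.5 and 89.8 in the 5 stages. In single arrays the median of the members lay between 37.3 and 53.4 in the 6 arrays of 0 and 12 HAI, between 588 and 831 in the 6 arrays of 24 and 36 HAI, and between 128 and 146 in those of 48 HAI. The 3 arrays of the dry seed ran from 37.3 to 53.4 and those of 12 HAI from 48.1 to 52.9. The members were chosen on these arrays, so nothing is read from how close they lie. Means under 32 were found for 78 members in the dry seed, 77 at 12 HAI and 37 at 48 HAI, whereas 75 reached 1000 or more at both 24 and 36 HAI. Low values are common on this array, with a 25th percentile over all probe sets of 31.9, 20.0 and 18.6 at 0, 12 and 48 HAI. The rule also favours low values at these stages, so nothing is read from these counts. In 188 of the 200 members all 6 arrays of 24 and 36 HAI lay above the 9 others, which held for 2.81% of all probe sets, but the rule chose the members on these arrays and nothing is read from that count. The 12 members with overlapping arrays ranked 117 or lower and had means of 72.1 to 287 at 24 HAI.

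**Figure D2:**
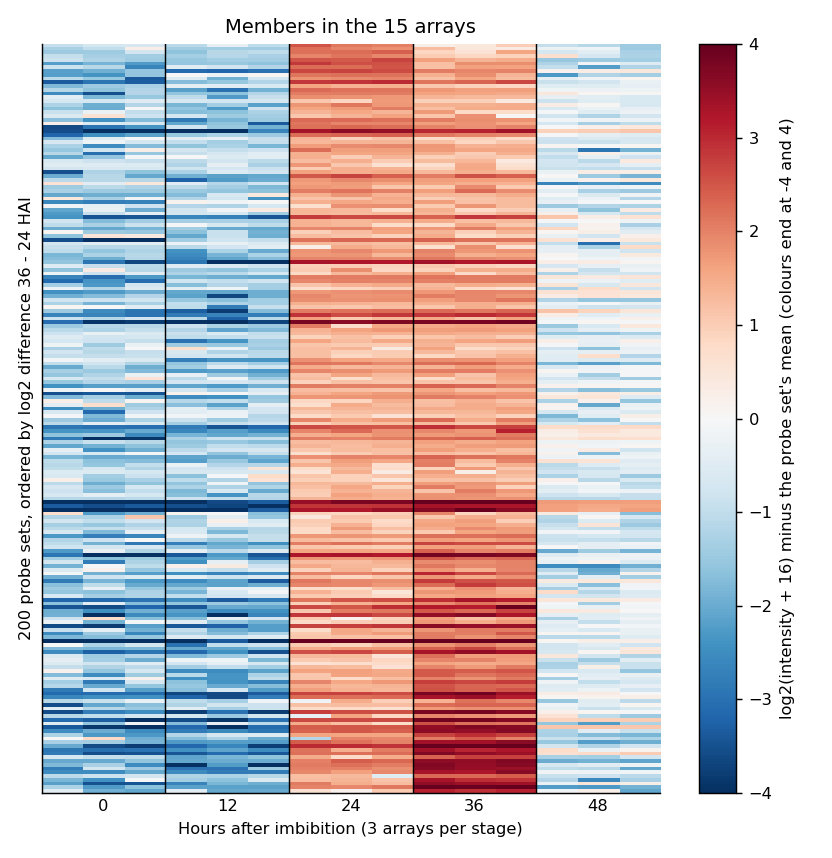
Each row is 1 of the 200 members and each column 1 of the 15 arrays, with log2(intensity + 16) shown as the difference from the mean of the row. Rows run from members that were higher at 24 HAI (top) to members that were higher at 36 HAI (bottom). The 6 arrays of 24 and 36 HAI are red almost throughout, and the 3 arrays of 48 HAI lie between them and the 6 arrays of 0 and 12 HAI in many rows.

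The 5 members with the highest scores had no name. TaAffx.107381.1.S1_at was nearly dark outside the peak, with 2.27, 2.24 and 8.30 in the 3 arrays of the dry seed, 1.82, 2.65 and 2.45 at 12 HAI and 2.61, 3.94 and 0.98 at 48 HAI. At 24 HAI it read 278, 379.6 and 341, and at 36 HAI 864, 839 and 945. The lower of the 2 high stages was at least 10.3-fold above the highest other stage, with values under 32 set to 32. TaAffx.82031.1.S1_s_at had the same form, with 457, 439.9 and 494 at 24 HAI, 1997, 1826 and 1861 at 36 HAI, and a mean of 11.2 at 48 HAI. Its dry seed arrays read 33.2, 9.03 and 22.3, and the fold was at least 14.3. In both probe sets the level at 48 HAI was near that before the peak, whereas the next ones kept some signal. Without the second dry seed array, TaAffx.82031.1.S1_s_at passed as lower than the dry seed at 12 and 48 HAI (limma adjusted p = 0.0110 and 0.00469).

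Cluster Ta.14492, a group of sequences joined when the array was designed, gave the scores of rank 2 and 3. Ta.14492.1.S1_at read 8.94, 2.65 and 3.24 in the dry seed, 8023, 7859 and 7926 at 24 HAI, 14400.5, 14456 and 13036 at 36 HAI, and 521, 579 and 586 at 48 HAI. At 12 HAI 1 array read 33.1 and the others 1.06 and 1.51. Ta.14492.2.S1_at read 3634, 3601 and 3401 at 24 HAI, 9628, 8975 and 7466 at 36 HAI, and 259, 182 and 251 at 48 HAI. The 2 probe sets belong to 1 cluster and are not taken as independent evidence. TaAffx.79227.1.S1_at was close to level over the peak in the deposited scale, with 4233, 3764 and 4089 at 24 HAI and 4161, 4233 and 4506 at 36 HAI. It read 282, 308 and 284 at 48 HAI after a dry seed mean of 10.8.

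Of the cell wall genes, LOC543145, the beta-expansin on chromosome 1D, read 141, 246 and 144 in the dry seed and 763, 669 and 757 at 12 HAI. It then stood at 5135, 5477 and 5359 at 24 HAI and at 5504, 5517 and 5518 at 36 HAI, and it was down at 1162, 1139 and 954 at 48 HAI. The ranges of the 5 stages did not overlap, and those of 24 and 36 HAI lay closest to each other. The rule favours a gap between these 2 stages and the others, so nothing is read from it. Between 0 and 12 HAI, a step whose sign the rule does not set, LOC543145 rose (log2 difference 1.99, standard error 0.18, limma adjusted p = 6.26e-06). At 48 HAI it remained above the dry seed (log2 difference 2.55, standard error 0.18, adjusted p = 1.7e-07) and above 12 HAI (0.56, adjusted p = 0.0311). The last call was lost with equal array medians (adjusted p = 0.0557), with the hybridization controls (0.108) and without any 1 of the arrays of 12 HAI or either of the first 2 arrays of 48 HAI (0.0552 to 0.101). Between 24 and 36 HAI it did not pass in the deposited scale (0.05, adjusted p = 0.954), but it was higher at 36 HAI with the poly-A controls (0.60, adjusted p = 0.0184).

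XTH, the xyloglucan endotransglycosylase/hydrolase gene on chromosome 4A, read 128, 147 and 228 in the dry seed and 109, 27.4 and 126 at 12 HAI, where 1 array lay far below the others. At 24 HAI it read 2065, 1837 and 1904, at 36 HAI 2247, 2040.3 and 1825, and at 48 HAI 672, 807 and 721. Unlike LOC543145 it was not higher at 12 than at 0 HAI (log2 difference -0.97, standard error 0.36, adjusted p = 0.0754), and it passed as lower with an intensity trend (0.0274) or without the third array of 12 HAI (0.0299), though the difference between the 2 genes was not tested. At 48 HAI it stayed above the dry seed (2.06, standard error 0.36, adjusted p = 0.000515) and kept 36.0% of its intensity at 36 HAI, against 19.7% for LOC543145.

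LOC606352, a gene of chromosome 1A, was measured by 3 members. Ta.3749.1.S1_at read 454, 528 and 427 at 24 HAI and 333, 473 and 429 at 36 HAI, and at most 22.8 in the 6 arrays of 0 and 12 HAI. Ta.3749.1.S1_s_at, from the same cluster, read 1498, 1542 and 1673 at 24 HAI and 922, 1055 and 1339 at 36 HAI. Its level rose between 0 HAI (5.05, 11.8 and 5.44) and 12 HAI (47.6, 57.6 and 78.9), by a log2 difference of 1.72 (standard error 0.21, adjusted p = 8.07e-05), while Ta.3749.1.S1_at had -0.31 (adjusted p = 0.62). The third probe set, Ta.3729.1.A1_at of another cluster, read 551, 543 and 664 at 24 HAI and 254, 352 and 349 at 36 HAI. All 3 had a lower mean at 36 than at 24 HAI, and none of these differences passed (adjusted p from 0.23 to 0.909), apart from that of Ta.3729.1.A1_at when 64 was added.

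On the reference assembly IWGSC CS RefSeq v2.1, LOC606352 lies beside LOC543148, with 0 annotated genes between them, and 1 gene separates it from LOC543143. LOC543143 was a member as well, with 23.8, 45.0 and 77.4 in the dry seed, 2188, 2324 and 2209 at 24 HAI, 1863, 1664 and 1854 at 36 HAI, and 463, 529 and 618 at 48 HAI. It rose by 12 HAI to 256, 152 and 112 (log2 difference 1.56, standard error 0.30, adjusted p = 0.00252). LOC543148 was the near miss of rank 376, with 177, 233 and 277 at 24 HAI, 176, 213 and 324 at 36 HAI and 90.0, 82.5 and 169.6 at 48 HAI, and at most 16.7 before. Nearness on the chromosome did not go with the pattern everywhere. LOC543144, with 2 genes between it and LOC543145 on 1D, had means of 19776 in the dry seed and 7107 at 48 HAI and ranked 45121.

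The mRNA accessions of 4 named members, AY543531 (LOC543139), AY543537 (LOC543143), AY543541 (LOC543145) and AY543542 (LOC543146), lie in 1 run of numbers, a point seen after their values were known. The run holds 17 probe sets of 16 genes on the array, of which only LOC543145 has a description. Scores above 0 were found for 8 of them, against 9.31% of all probe sets. The 4 members by which the run was seen are among the 8, so nothing is read from that count. LOC543146 on 6B read 281, 446 and 395 at 24 HAI, 508, 519 and 424 at 36 HAI and 68.8, 80.8 and 63.3 at 48 HAI. It fell from 81.2, 101 and 76.2 in the dry seed to 30.5, 13.2 and 52.9 at 12 HAI (log2 difference -1.16, standard error 0.27, adjusted p = 0.00808), a call that was lost with equal array medians (0.0601) and the hybridization controls (0.225). LOC543139 on 3B was dim even at its peak, with 221, 211 and 134 at 24 HAI and 136, 240.2 and 173 at 36 HAI.

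Of the genes of the run that were no members, LOC543148, described above, and LOC543137 also had their highest means at 24 and 36 HAI, the latter with 740.0 and 1012 and still 622 at 48 HAI. LOC543147 had means of 90.2 at 24 HAI and 378 at 36 HAI and LOC543359 had 1856 at 24 HAI and 474 at 36 HAI. LOC543142 was close to level, from 420.1 to 636 over the 5 stages. Others were highest in the dry seed, as LOC543144, described above, and LOC543140, with means of 422 there and 81.5 at 24 HAI (rank 58387).

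Cluster Ta.1082 held 3 genes with symbols on the homoeologous chromosomes 7A (LOC100037645), 7B (LOC100037531) and 7D (LOC543268), and 4 of its 5 probe sets were members. The 7A probe set Ta.1082.1.S1_x_at read 507, 592 and 606 in the dry seed, 11872, 11337 and 11166 at 24 HAI, 14151, 13428 and 11104 at 36 HAI, and 3149.6, 3016 and 2849 at 48 HAI. The 7D probe set Ta.1082.2.S1_x_at read 10048, 9284 and 8324 at 24 HAI, 10557, 10704 and 9087 at 36 HAI, and 2803, 2336 and 2472 at 48 HAI. The 7B probe set Ta.1082.3.S1_x_at read 11675, 12436 and 12979.7 at 24 HAI, 11742, 13758 and 13412 at 36 HAI, and 5321, 5226 and 4927 at 48 HAI. All 3 genes were thus bright at the same stages, and they kept 23.3% (7A), 25.1% (7D) and 39.8% (7B) of the 36 HAI intensity at 48 HAI. The second 7B probe set kept 49.4% and missed the members at rank 361, while the second 7A probe set, Ta.1082.1.S1_a_at, kept 18.5%. Since probe sets ending in x can bind sequences of several genes, how far each reads its own homoeolog was not tested. At 12 HAI the 7D probe set was lower than in the dry seed (log2 difference -0.73, standard error 0.14, adjusted p = 0.00293), and the 7A and 7B ones did not pass (adjusted p from 0.135 to 0.849). This contrast between the genes depends on the scaling. With equal array medians the 7D call was lost (adjusted p = 0.164), and Ta.1082.1.S1_x_at of 7A and Ta.1082.3.S1_x_at of 7B passed as higher (0.58 and 0.62, adjusted p = 0.0187 and 0.0189), while with the poly-A controls the 7D probe set was higher too (0.83, adjusted p = 0.000728).

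**Figure D3:**
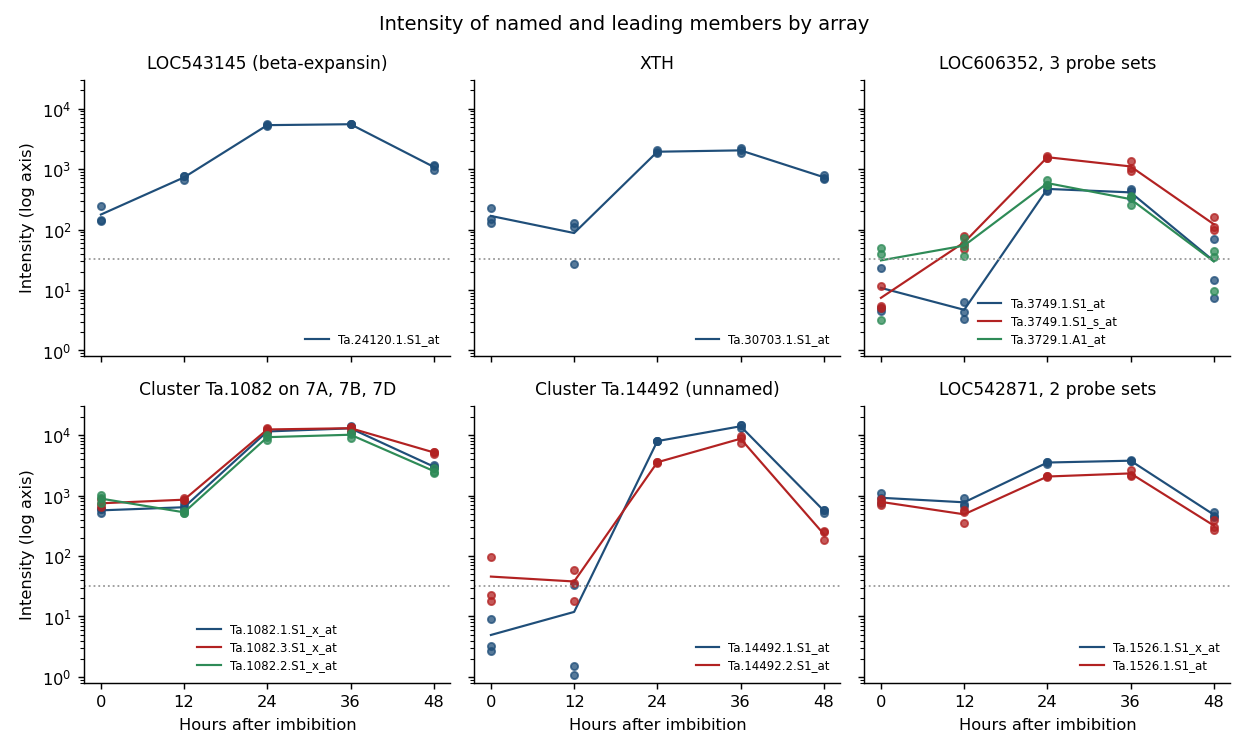
Intensity (log axis) against hours after imbibition for 6 genes or clusters, with 1 point per array, lines through the means of the 3 arrays and a dotted line at 32. All probe sets shown stood highest at 24 and 36 HAI. LOC543145 was already at a mean of 729.8 at 12 HAI, after 177 in the dry seed.

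LOC542871 was measured by 2 members, whose means at 48 HAI lay below those of the dry seed in the deposited scale. Ta.1526.1.S1_x_at read 762, 1088 and 903 in the dry seed, 3335, 3643 and 3551 at 24 HAI, 3856, 3760.3 and 3676 at 36 HAI, and 465, 441 and 540.2 at 48 HAI. Its level at 48 HAI was below 0 HAI (log2 difference -0.90, standard error 0.16, adjusted p = 0.000499) and below 12 HAI (-0.65, adjusted p = 0.00566), and Ta.1526.1.S1_at gave -1.27 and -0.58 (adjusted p = 0.00018 and 0.0378). The calls against the dry seed depend on the scaling. Ta.1526.1.S1_x_at lost its call with equal array medians (-0.46, adjusted p = 0.103), both lost it with the hybridization controls (adjusted p = 0.54 and 0.195), and with the poly-A controls both turned positive (0.59 and 0.22). The call of Ta.1526.1.S1_at against 12 HAI was also lost under 2 scalings (adjusted p = 0.0504 and 0.252) and without any 1 of several arrays. LOC100037659 on 3B had similar means at 48 and 0 HAI in the deposited scale. TaAffx.86552.1.S1_x_at read 725, 713 and 763 in the dry seed, 4223, 4617 and 4347 at 24 HAI, 5836, 5538 and 5813 at 36 HAI, and 751, 739 and 823 at 48 HAI (48 against 0 HAI 0.07, standard error 0.12, adjusted p = 0.674). Under the 3 other scalings it was higher at 48 HAI (0.50, 0.76 and 1.55, adjusted p = 0.0368, 0.0110 and 1.79e-07). The other 2 probe sets that the table assigns to LOC100037659 did not share the pattern. Ta.5480.1.S1_x_at had means of 2467, 4942, 1634, 1398 and 1727 and Ta.5480.3.S1_at 127, 181, 122, 110.1 and 188, so the value of this gene depends on the probe set.

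The remaining named members were LOC100049054, LOC100037551, LOC606365 and LOC543383 on 2A and LOC543134 on 2D. LOC100049054 read 2109, 1931 and 1961 at 24 HAI and 4424, 3853 and 3709 at 36 HAI, with 528, 522 and 598 at 48 HAI. LOC100037551 read 5094, 4265 and 4432 at 24 HAI and 5451, 4615 and 4922 at 36 HAI, and it kept 35.1% of the latter at 48 HAI. The other 3 were dim or uneven. A second probe set of LOC606365, TaAffx.6469.1.S1_at, was no member (rank 2766, means 50.2, 6.78, 65.1, 62.6 and 14.1), nor was Ta.2148.1.S1_x_at of LOC543383 (rank 1586), which kept 43.8%. LOC606365 read 248, 89.7 and 171 at 24 HAI on its member, and LOC543134 read 39.0, 152 and 102, of which the lowest lay below its highest array of 12 HAI (39.2). In LOC543383 1 dry seed array read 189.8 beside 26.3 and 24.6 and lay above 2 of the 3 arrays of 24 HAI. In all, 18 of the 20 probe sets with symbols had their 6 arrays of 24 and 36 HAI above the 9 others. The same held for 188 of all members and for 2.81% of all probe sets. The rule chose the members on these arrays, so nothing is read from the count of 18.

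The members were not independent transcripts. They fell into 167 sequence clusters, of which 23 gave at least 2 members and together 56. Ta.1082, Ta.1880, Ta.2746 and TaAffx.13113 gave 4 members each, and Ta.5216 and Ta.994 gave 3. Probe sets ending in x made up 28.0% of the members and 11.1% of all probe sets, and those ending in s, which match several transcripts, 10.5% and 4.28%. Whether shared probes account for part of the repeated members was not tested. The 20 members with symbols were not from 1 chromosome. In the reference, 18 of them lay on 10 chromosomes, with 4 probe sets each on 1A and 2A.

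Between 24 and 36 HAI the rule leaves the direction free, although it favours probe sets in which both are close and uses the same arrays. Of the 200 members, 146 had a higher mean at 36 HAI and 54 at 24 HAI. By limma with Benjamini-Hochberg adjustment over all 61115 probe sets, 21 members (10.5%) were higher at 36 HAI, against 2.41% of all probe sets, and 5 (2.5%) were lower, against 3.0%. The median log2 difference was 0.23 for the members and -0.02 for all. The split depends on the scaling of the arrays, with 18 higher and 3 lower when array medians were set equal, 17 and 2 with scaling to the hybridization controls, and 93 and 2 with scaling to the poly-A controls, which alone moved the median of all probe sets to 0.40. Over all 61115 probe sets the poly-A controls gave 13127 higher and 690 lower. Without any 1 of the 6 arrays of 24 and 36 HAI the 5 lower members became 2 or 3.

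Named members were those with a symbol, those with the highest scores and those just inside the limit, 27 in all. With 16 added, 3 of the 27 passed as higher at 36 than at 24 HAI and 0 as lower. Over all probe sets 2.41% were higher and 3.0% lower. Members picked by their change, given further below, are not among the 27. TaAffx.82031.1.S1_s_at rose by 1.99 in log2 (standard error 0.21, adjusted p = 0.000115), TaAffx.107381.1.S1_at by 1.37 (standard error 0.15, adjusted p = 0.000182) and LOC100049054 by 0.99 (standard error 0.20, adjusted p = 0.0134). The call of LOC100049054 was lost when the second or the third array of 24 HAI or the first of 36 HAI was left out (adjusted p from 0.0517 to 0.0581) and with scaling to the hybridization controls (0.0659), and that of TaAffx.107381.1.S1_at with 1 added in place of 16 (0.0854). Calls were also gained. With 64 added, Ta.3729.1.A1_at of LOC606352 passed as lower (-0.77, adjusted p = 0.0390), and Ta.14492.1.S1_at, Ta.14492.2.S1_at, LOC100037659 and Ta.1465.1.S1_at as higher (adjusted p from 0.00209 to 0.0291). Ta.14492.2.S1_at passed as well without the first dry seed array (adjusted p = 0.0118) and Ta.14492.1.S1_at without the second array of 12 HAI (adjusted p = 0.00484). With an intensity trend, Ta.14492.2.S1_at, LOC100037659, Ta.1082.1.S1_a_at and Ta.1465.1.S1_at passed as higher (adjusted p from 0.00612 to 0.0494), as did 2303 of all probe sets. With the poly-A controls more of the 27 passed as higher, among them LOC543145 and TaAffx.79227.1.S1_at (adjusted p = 0.0184 and 0.0121), as did 13127 of all probe sets. The largest differences of the other called members, singled out after their values were seen, were those of Ta.9000.1.S1_at, which rose from 125, 86.7 and 174 to 781, 683 and 757 (log2 difference 2.43, adjusted p = 0.0428), and Ta.9172.3.S1_x_at, which fell from 267, 198 and 184 to 43.1, 51.1 and 83.5 (-1.65, adjusted p = 0.00192). Ta.87 and Ta.2746, clusters without names that were picked in the same way, gave 2 members each that rose, from means between 4998 and 5470.0 at 24 HAI to means between 11164 and 13178 at 36 HAI. Ta.87.1.S1_at, for instance, read 5511, 5683 and 5216 and then 11640.3, 12583 and 9269.

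**Figure D4:**
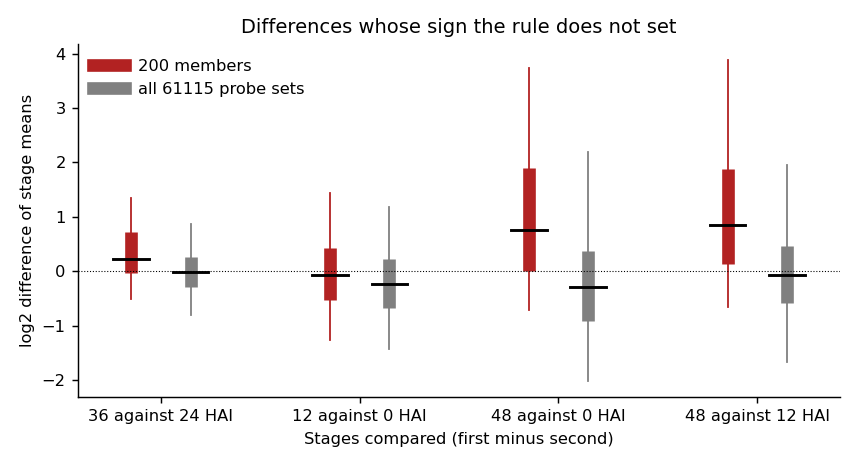
Log2 differences of stage means for the 200 members (red) and all 61115 probe sets (grey) in 4 comparisons whose sign the rule does not set. Black bars are medians, thick bars the 25th to 75th percentiles and thin lines the 5th to 95th percentiles. For 48 HAI the red medians are 0.76 against the dry seed and 0.85 against 12 HAI, while the grey ones are -0.30 and -0.06.

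At the start of the time course the members moved little together. From 0 to 12 HAI, 21 rose (10.5%, against 10.1% of all probe sets) and 23 fell (11.5%, against 12.8%), shares near the background. Their median log2 difference was -0.07, against -0.23 for all, but its sign turned with the scaling, to 0.14 with equal array medians, 0.28 with the hybridization controls and 0.81 with the poly-A controls, where the medians of all were 0.06, 0.21 and 0.82. Counts moved with it, to 33 higher and 8 lower, 39 and 3, and 101 and 1. Over all 61115 probe sets the counts moved in the same way, from 6194 higher and 7802 lower to 9681 and 2828, 11251 and 1433, and 26724 and 409. LOC543145, LOC543143 and 1 probe set of LOC606352 were among those that rose, and LOC543146, LOC543268 and Ta.1526.1.S1_at of LOC542871 (-0.69, standard error 0.19, adjusted p = 0.0237) among those that fell in the deposited scale. The last 3 lost their calls with equal array medians, and Ta.1526.1.S1_at also without any 1 of 3 arrays of 0 and 12 HAI (adjusted p from 0.0516 to 0.0918).

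After the peak, many members remained above the level of the dry seed and few lay below it. At 48 HAI the median member kept 19.1% of its intensity at 36 HAI, with a range of 0.284% to 41.6%. The upper end of this range is set by the rule. The highest stage outside the peak was 48 HAI in 133 members, 0 HAI in 42 and 12 HAI in 25. Against the dry seed, 91 members (45.5%) were higher at 48 HAI by limma, against 17.0% of all probe sets, and 8 (4.0%) were lower, against 23.9%. With equal array medians, the hybridization controls and the poly-A controls these counts became 107 and 3, 113 and 1, and 144 and 1, and the 14580 of all probe sets that were lower became 8441, 5384 and 2401. The median log2 difference of the members was then 1.05, 1.24 and 1.80, against -0.03, 0.13 and 0.61 for all. The 10407 of all probe sets that were higher became 23722 with the poly-A controls. Against 12 HAI, 92 (46.0%) were higher, against 15.1%, and 10 (5.0%) were lower, against 16.8%. The 10 lower ones became 6 when the second array of 12 HAI or the second array of 48 HAI was left out, and 5 when the third array of 12 HAI was. Both comparisons share the arrays of 48 HAI. The rule caps 48 HAI below the peak but sets no order between 48 HAI and the earlier stages. It caps 0 and 12 HAI as well, which keeps out probe sets that were brightest in the dry seed. The highest member mean there was 1525, against 104847 over all probe sets. Fewer lower and more higher members than among all probe sets can thus follow from the rule, and nothing is read from that gap. In the 78 members with a dry seed mean under 32, a level below the start could hardly have been measured.

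In both comparisons at once, 76 members were higher at 48 HAI than at 0 and at 12 HAI, 38.0% of the members against 11.9% of all probe sets. These were the bright members, with medians of 65.5 in the dry seed, 2208 at 24 HAI, 2787 at 36 HAI and 518 at 48 HAI. LOC543145, LOC543143, XTH, the Ta.1082 genes and both probe sets of Ta.14492 belonged to them. Lower at 48 HAI than at both stages were 6 members, 3.0% against 12.2% of all, and the 2 probe sets of LOC542871 were among the 6 in the deposited scale. The limit that the rule sets on such shares, given above, holds here too. In 81 members neither comparison passed, and these were dimmer, with medians of 28.8 in the dry seed, 206 at 24 HAI, 242 at 36 HAI and 37.8 at 48 HAI. TaAffx.107381.1.S1_at and TaAffx.82031.1.S1_s_at were among these, together with LOC100037659. A p that misses the threshold does not show that the level was back, and dim probe sets varied more. The median SD of the members within a stage was 0.40 in log2 in the dry seed and 0.27 at 48 HAI, against 0.13 and 0.15 at 24 and 36 HAI.

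To read the same measure in arrays that the choice had not used, the 200 highest scores were chosen again on 2 arrays per stage and the score was read in the third. The choices without replicate 1, 2 and 3 shared 168, 168 and 169 probe sets with the members. In the 5 arrays left out, the chosen probe sets had median scores of 1.46, 1.52 and 1.46, lower than the 1.69, 1.67 and 1.64 in the arrays that chose them, while the medians of all probe sets were -0.98, -0.90 and -0.94. Scores above 0 in the arrays left out were found for 185, 184 and 185 of the 200, against 9.14%, 10.1% and 8.89% of all probe sets. The 15 or 16 others did not hold the order of the stages in single arrays. Replicate numbers name separate samples here, and the numbering is that of the labels.

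**Figure D5:**
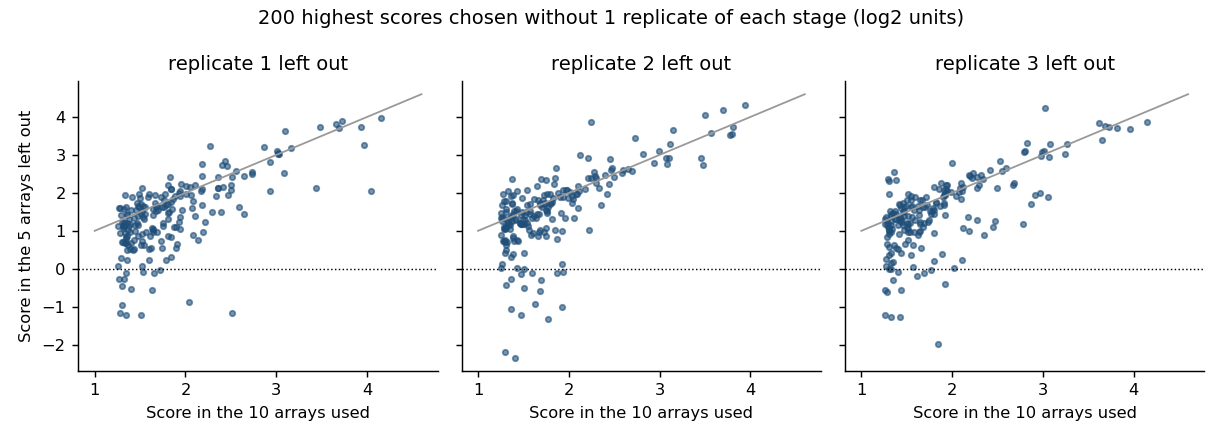
Score of the 200 probe sets chosen without 1 replicate of each stage, in the 10 arrays used (x axis) and in the 5 arrays left out (y axis), both in log2 units. The grey line marks equal scores. In each panel 184 or 185 of the 200 points lie above 0. Single points lie far from the line, as Ta.3749.1.S1_at with 4.04 in the arrays used and 2.04 in the arrays of replicate 1 left out.

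Outside the members, the 3 probe sets whose 15 log2 values followed the mean profile of the members most closely had no names, namely Ta.5323.1.S1_at (Pearson's r = 0.99, rank 477), Ta.2667.1.S1_at (0.99, rank 271) and Ta.10303.3.S1_x_at (0.99, rank 318). The stages were the same for all, so these r describe the shared time course. Of these, Ta.2667.1.S1_at was bright at every stage, with 4922, 4616 and 4823 in the dry seed, 22163, 20814 and 19672 at 24 HAI, 24619.5, 22232 and 19108 at 36 HAI and 9797, 9729 and 9653 at 48 HAI. The scores of the 3 were 0.86, 1.10 and 1.01, below the lowest score of a member.

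Other genes of wall growth, reserve use and signalling were taken from 11 lists of words applied to the names and descriptions of 355 probe sets, and 1 list (protein breakdown) matched none. The lists matched 52 probe sets outside the members and 1 member, LOC543145, while XTH, known by its symbol alone, matched none of the words. Of the 52, 21 rose and 18 fell from 12 to 24 HAI (13.3% and 14.8% of all probe sets), and 3 rose and 14 fell from 36 to 48 HAI (5.35% and 5.29%). Both steps of the transient form, a rise to 24 HAI and a fall after 36 HAI, passed in 2.34% of all probe sets. They passed in 2 of 2 probe sets for starch breakdown, 1 of 5 for the cell wall, 1 of 10 for defence, 1 of 5 for hormones and 2 of 7 for signalling kinases. The 2 for starch breakdown belong to 1 gene, LOC542862, and are not independent. None passed both among the 1 for lipid breakdown, 3 for cell cycle and chromatin, 6 for transport, 10 for transcription factors and 3 for phenylpropanoids. Descriptions came from the paper's rice matches and co-expression list, built at least in part from genes it called as changing in these arrays. Called changes can thus be more common here than among all probe sets, and nothing is read from these counts. How many fell from 36 to 48 HAI also depends on the scaling, as given further below.

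The members' share of intensity kept at 48 HAI is capped by the rule, so the shares of these genes are given without a comparison. LOC542808, for a catalytic subunit of cellulose synthase, which makes the cellulose of the wall, read 1124, 1348 and 1436 at 12 HAI and 4253, 4370.2 and 4307 at 24 HAI (log2 difference 1.72, adjusted p = 2.66e-07). It was at 4805, 4702 and 5029 at 36 HAI and fell to 2728, 3017 and 2972 at 48 HAI (-0.74, adjusted p = 0.00196), so it kept 60.0%. LOC543438, described as a germin-like protein, missed the members at rank 246, with 5619, 5228 and 5940.5 at 24 HAI and 2033, 2193 and 2072 at 48 HAI (-1.34 from 36 HAI, adjusted p = 8.66e-05), and kept 39.2%. LOC542862, for an alpha-glucan phosphorylase that releases glucose phosphate from starch, rose from 403, 419.8 and 379 at 12 HAI to 1896, 2201 and 1916 at 24 HAI on Ta.1197.1.S1_at (2.28, adjusted p = 3.09e-08). It fell by 0.92 from 36 to 48 HAI (adjusted p = 0.000552) and kept 52.6%. Ta.30921.1.S1_x_at, for a 12-oxophytodienoate reductase, an enzyme type of jasmonate synthesis, kept 53.1%, and LOC780573, for a calcium-dependent protein kinase, 62.3% on Ta.6350.2.S1_x_at. Its other probe set, Ta.6350.2.S1_a_at, kept 94.6%, and its step from 36 to 48 HAI did not pass (-0.08, adjusted p = 0.856). In contrast, the wall gene Ta.28766.3.S1_at, described as another XTH, had means of 207, 597, 693, 1017 and 949, and its changes at 24 HAI (0.21, adjusted p = 0.296) and 48 HAI (-0.10, adjusted p = 0.776) did not pass.

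Facts of the arrays that move with the stages bear on these values. By name, 19 probe sets for Em, dehydrin and other late embryogenesis abundant proteins of the embryo had a median of 42141 in the dry seed, 914 at 36 HAI and 481 at 48 HAI, and 11 for storage proteins of the endosperm 879.8, 53.4 and 22.2. The 2 described as linker histones, proteins of new chromatin, had 273, 16112 and 19644. Alpha-amylase, cathepsin, carboxypeptidase, cyclins and chlorophyll proteins matched 0 probe sets by name in the tables used, so markers of the aleurone and the green shoot were not analysed here. None of the markers found were members, none of these 3 lists was highest at 24 and 36 HAI by its median, and their part in the members' pattern was not tested. As a measure of RNA quality, the 3' control probe set was divided by its 5' partner, a ratio that is higher in degraded RNA. For glucose-6-phosphate dehydrogenase it had means of 9.53, 12.4, 16.1, 16.5 and 28.6 from 0 to 48 HAI, and for ubiquitin 0.502, 0.591, 0.664, 0.615 and 0.762, neither highest nor lowest at 24 and 36 HAI. For glyceraldehyde-3-phosphate dehydrogenase the means were 0.286, 0.223, 0.211, 0.0850 and 1.07, lowest at 24 and 36 HAI as the members were highest, although the arrays of 24 HAI overlapped those of 0 and 12 HAI. Actin had 0.909, 0.410, 0.296, 3.81 and 8.50 and elongation factor 1a 5.17, 8.06, 1.03, 1.25 and 0.482. Single arrays spread widely, from 1.08 to 8.84 for actin at 36 HAI and from 0.179 to 23.4 for elongation factor 1a at 12 HAI. No course over the stages is therefore read from these 2 controls. The part of RNA quality in the members' pattern was not tested.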

How the data were processed

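RNA of 15 seed samples (5 stages, 3 biological replicates) was measured on Affymetrix Wheat Genome Arrays. The authors deposited MAS 5.0 intensities on a linear scale (MAS5 per the labels), scaled to a common level per array. The paper's methods also name RMA, which these values are not. Scanner files were not used here, and the number of arrays limits the precision. Of 61290 probe sets, 175 controls were set aside and 61115 were scored. A linear model of the 5 stages was fitted on log2(intensity + 16) with limma 3.58.1 in R 4.3.3 and empirical Bayes moderation, and p were adjusted by Benjamini-Hochberg over all 61115 with a threshold of 0.05. Log2 differences of dim probe sets depend on the added 16. Python 3.11.15 with pandas 2.3.3 and matplotlib 3.10.9 served for tables and plots.

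A fold compares geometric means with values under 32 set to 32, and is a bound where the lower mean is under 32. Genes named were all members with a symbol, the 5 highest scores, ranks 199 to 202, the 3 most similar probe sets outside, and up to 3 probe sets per list by score. Neighbouring genes, the run of accessions, other probe sets of the named genes and clusters picked by their change were added with their values known. The members and lists were chosen with earlier results of these data known. Lists were searched in the gene names, in the rice matches and in the descriptions of the co-expression table of the paper. Gene symbols come from GEO's platform annotation, and chromosomes and gene order from RefSeq for IWGSC CS RefSeq v2.1. No build is named in the files, so no coordinates are given. Alternatives were 1 or 64 added, 3 other scalings, no dim probe sets (under 32 in every stage), 1 array left out, the replicate number as a block and an intensity trend.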

Additional observations from a re-analysis of the deposited data

How the results depend on the processing

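The 200 members kept 162 of their number with 1 added before log2, 161 with 64 added, 190 with array medians set equal, 178 with the hybridization controls, 155 with the poly-A controls and 200 without dim probe sets. Leaving out arrays kept 168 to 198, and the median score in arrays not used ran from 1.46 to 1.52. With 1 added, 11 members were higher and 2 lower at 36 than at 24 HAI, and with 64 added 43 and 10. Over all 61115 probe sets, 1472 were higher and 1834 lower as reported, and both counts stayed within 1.5 times with 1 added. With 64 added, 2361 of all probe sets were higher, and the lower ones stayed within 1.5 times. Counts over all probe sets that moved under the 3 scalings are given further below. With equal array medians the lower ones were 3 (36 against 24 HAI), 8 (12 against 0 HAI) and 3 (48 against 0 HAI), and 33 were higher at 12 than at 0 HAI. Scaling to the hybridization controls gave 2, 3, 1 and 5 lower (the last for 48 against 12 HAI) and 39 higher at 12 HAI. Scaling to the poly-A controls gave 93 higher and 2 lower at 36 HAI, 101 and 1 at 12 HAI, and 144 and 1 at 48 against 0 HAI. Without single arrays, 2 to 6 members were lower at 36 than at 24 HAI and 5 to 10 at 48 than at 12 HAI. All counts of members called higher stayed within 1.5 times without single arrays, without dim probe sets and with an intensity trend.

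The replicate numbers did not pair the arrays (r of the deviations from -0.030 to 0.051, 0 of 30 over 0.1). With the replicate block the counts of members higher and lower were 20 and 5 (36 against 24 HAI), 22 and 23 (12 against 0 HAI), 90 and 7 (48 against 0 HAI) and 94 and 9 (48 against 12 HAI). The same counts over all probe sets stayed within 1.5 times of those reported.

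For the gene lists from 36 to 48 HAI, 1, 1 and 0 probe sets were higher with equal medians, hybridization controls and poly-A controls, and 37 were lower with the last. The poly-A controls moved the median log2 difference of all probe sets at this step from 0.02 to -0.57. The matching counts over all probe sets are not given, so nothing is read from the 37. Over all probe sets, alternatives tried after the data had been seen moved 1472 higher and 1834 lower at 36 against 24 HAI to 2361 higher with 64 added, 2303 and 2957 with an intensity trend, 1203 lower with equal medians, 530 lower with the hybridization controls and 13127 and 690 with the poly-A controls, and to as few as 914 and 1151 without 1 array. From 0 to 12 HAI 6194 and 7802 became 9681 and 2828, 11251 and 1433, and 26724 and 409 under the 3 scalings. At 48 against 0 HAI 14580 lower became 8441, 5384 and 2401, and 10407 higher became 23722 with the poly-A controls. Of the 27 named members, none that passed at 36 against 24 HAI changed direction under these alternatives. In the comparisons with 0 HAI, also tried after the data had been seen, the poly-A controls turned the sign at 12 HAI of Ta.1082.1.S1_a_at (1.49), Ta.1526.1.S1_x_at (1.31), Ta.1526.1.S1_at (0.86), Ta.20771.1.S1_at of LOC543146 (0.036), Ta.1082.2.S1_x_at (0.83), Ta.5566.3.S1_a_at (1.26), Ta.22672.1.S1_at (1.53) and Ta.1465.1.S1_at (0.61), and at 48 HAI of Ta.1526.1.S1_x_at (0.59), Ta.1526.1.S1_at (0.22) and Ta.20771.1.S1_at (0.94). The cause was not tested.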
